A study of Mus musculus with 9 samples.

Results

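Bile acids and other organic anions cross the hepatocyte through a small set of membrane transporters, and 10 of their genes are described here in mouse liver. The genes were chosen by name and role from the 16266 genes listed in both deposited tables, and all 10 were found there. Of these, 5 take bile acids and other anions up from the blood across the sinusoidal membrane (Slc10a1, Slco1a1, Slco1a4, Slco1b2 and Slco2b1). Another 3 export bile acids, phospholipid or conjugates across the canalicular membrane into bile (Abcb11, Abcb4 and Abcc2). The remaining 2 return conjugates and bile acids to the blood across the basolateral membrane (Abcc3 and Abcc4).

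Bile acids circulate between the liver and the intestine, and the hepatocyte clears them from portal blood and secretes them into bile against a steep gradient. Bile acid load is sensed in hepatocytes by the nuclear receptor FXR (Nr1h4), which acts with RXR on genes such as Abcb11 and Nr0b2. The drug-sensing receptors CAR (Nr1i3) and PXR (Nr1i2) and the oxidant-responsive factor NRF2 (Nfe2l2) are known to act on Abcc2, Abcc3, Abcc4 and Slco1a4. In cholestasis and inflammation, uptake and canalicular export are known to be turned down while basolateral efflux is often turned up.

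RNA sequencing measured liver transcripts of wild-type mice in 3 groups of 3 livers. All mice received an AAV8 vector through the tail vein, in which the hepatocyte-restricted TBG promoter drove either a multiple cloning site (control virus) or Mettl3, each followed by 3×FLAG and the WPRE element. Feeding began 3 weeks later and lasted 10 days, ending with a single binge. Pair-fed mice with the control virus received control diet and a maltose binge. Ethanol-fed mice with the same virus received ethanol diet and an ethanol binge. The last group received the Mettl3 virus and was otherwise treated like the second. The sample titles name no virus, which comes from the description of the series, and no label gives strain, age, sex or batch. A group with the Mettl3 virus on control diet was not analysed here. Nothing in the labels says that libraries of a group came from separate animals, so p-values measure only the spread between these samples, which may be technical.

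Recovered totals were 34655840 to 38159563 reads per library. Mettl3 was at 3.10 to 5.44 FPKM (a read count scaled for gene length and library size) in the 6 control-virus livers and at 24.98 to 38.5 FPKM in the 3 Mettl3 livers. The liver label held for the hepatocyte markers, of which 9 of 10 were listed and none was at 0 in any library. Their summed level was 54561 to 60159 FPKM in pair-fed livers, 45183 to 61449 in ethanol-fed control livers and 39949 to 48784 in Mettl3 livers. Alb alone made up most of it, at 42143 to 45946 FPKM in pair-fed livers. In bulk tissue, fewer cells of a type and less RNA per cell cannot be told apart.

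Within each ethanol-fed group, 1 liver was the highest for every transporter, by margins that were small in some, such as Abcc3 in ethanol-fed control livers. Ethanol-fed control liver 1 was the highest of its group for 10 of 10 transporters, against 60.0% of 10229 genes tested, and Mettl3 liver 3 was the highest of its group for 10 of 10, against 56.4%. The same livers stood apart for Cyp7a1, the rate-limiting enzyme of classical bile acid synthesis, which was at 36.6 FPKM in ethanol-fed liver 1 against 4.01 and 1.41 in livers 2 and 3. Among Mettl3 livers Cyp7a1 was at 31.9 FPKM in liver 3 against 0.262 and 0.219 in livers 1 and 2, while pair-fed livers were at 30.0 to 45.0. The summed level of the 5 listed neutrophil markers was 8.42 FPKM in ethanol-fed liver 1, within the pair-fed range of 6.35 to 10.4, against 65.3 and 70.9 in the other ethanol-fed control livers. In Mettl3 liver 3 it was 47.2 FPKM against 73.5 and 103. The part of these differences in the transporter results was not tested. Transporter calls, and in the Mettl3 comparison also the transporter median, are given with and without these livers. Since the transporters themselves picked these livers out, leaving them out lowers the transporter values by construction. Results without them are descriptions only.

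The regulatory sequence just before the start sites is shown for the 4 transporters whose window held the nuclear receptor core hexamer AGGTCA on either strand. Windows are from RefSeq promoters on GRCm38.p6, which matched 9 of the 10 genes, and are written 5′ to 3′ on the gene's strand. Capitals mark AGGTCA on either strand and the inverted repeat GGNCANTGACC, which overlaps it.
Abcb11, chr2:69342617-69342866, minus strand: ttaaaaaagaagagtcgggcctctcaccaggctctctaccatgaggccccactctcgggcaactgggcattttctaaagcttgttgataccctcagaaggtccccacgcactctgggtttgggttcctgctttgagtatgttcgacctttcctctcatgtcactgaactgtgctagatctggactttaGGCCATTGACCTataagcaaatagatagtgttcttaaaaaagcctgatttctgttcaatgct
Slco1b2, chr6:141629268-141629451, plus strand: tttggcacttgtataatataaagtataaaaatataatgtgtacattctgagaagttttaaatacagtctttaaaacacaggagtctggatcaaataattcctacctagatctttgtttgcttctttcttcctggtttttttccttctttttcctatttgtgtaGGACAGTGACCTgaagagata
Abcc2, chr19:43782058-43782307, plus strand: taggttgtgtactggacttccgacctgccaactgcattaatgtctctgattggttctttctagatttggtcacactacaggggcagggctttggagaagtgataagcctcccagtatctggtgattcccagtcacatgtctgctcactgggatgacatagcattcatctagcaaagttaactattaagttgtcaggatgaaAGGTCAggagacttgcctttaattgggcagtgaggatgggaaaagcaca
Slco1a1, chr6:141946963-141947212, minus strand: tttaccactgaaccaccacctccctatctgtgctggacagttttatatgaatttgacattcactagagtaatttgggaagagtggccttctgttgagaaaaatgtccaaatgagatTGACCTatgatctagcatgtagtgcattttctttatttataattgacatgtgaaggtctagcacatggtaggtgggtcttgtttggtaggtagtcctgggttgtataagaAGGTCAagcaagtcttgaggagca

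Windows of 250 bases before each start site were searched on both strands, with 1 window per gene. The hexamer AGGTCA was found in 4 of 9 transporter windows and in 13.8% of 27025 promoters, the 4 being those of Abcb11, Slco1b2, Slco1a1 and Abcc2. A further window listed for Slc10a1, not counted here, held it too. The inverted repeat GGNCANTGACC, which leaves 1 base of its first arm and the spacer base free, was chosen after the sequences were seen. It was found in Abcb11 at position -62 and in Slco1b2 at position -87, counted back from the table's start site, and in 0.192% of all promoters, and in both genes it overlaps the AGGTCA match. For Slco1b2 only the 184 bases before the RefSeq gene model are printed, because that model starts upstream of the table's start site. The core of the antioxidant response element, TGACNNNGC, was found in Abcc2 and Abcc4 and in 10.1% of promoters. The STAT palindrome TTCNNNGAA was found in Slco1b2 and Slc10a1 and in 7.18% of promoters, and a further window listed for Slco2b1, not counted here, held it too. These matches describe letters in the windows and not binding.

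In pair-fed livers the order of levels by mean FPKM began with the uptake carriers Slco1b2 at 529.6 ± 94.0 and Slc10a1 at 374.7 ± 15.9 (SD, n = 3 here and below), whose ranges did not overlap. The canalicular exporters followed, with Abcc2 at 123.8 ± 23.9, Abcb11 at 119.4 ± 21.2 and Abcb4 at 91.0 ± 13.2, and neighbours in this order overlapped. Abcc3 at 44.1 ± 7.15 and Slco1a4 at 43.0 ± 4.07 also overlapped, and were above Slco2b1 at 29.1 ± 2.25. Slco1a1 was at 9.96 ± 7.66 and Abcc4 at 0.496 ± 0.105 FPKM. In ethanol-fed control livers Slc10a1, at 339 ± 79.3 FPKM, had the highest mean, and its range overlapped that of Slco1b2, at 261 ± 27.5. At the other end Slco1a1, at 0.402 ± 0.293 FPKM, had a lower mean than Abcc4, at 0.603 ± 0.110, and their ranges overlapped.

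**Figure D1:**
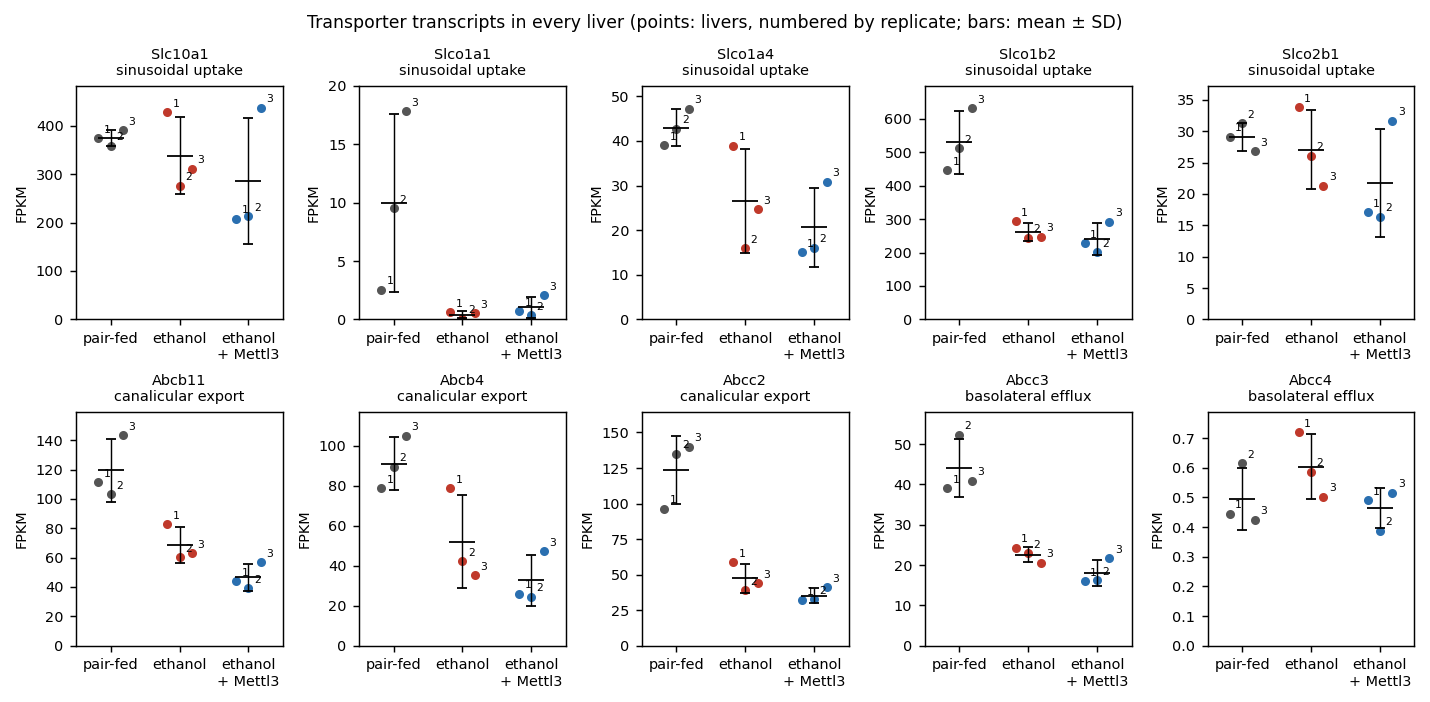
FPKM of each transporter (y axis, from 0) in every liver by group (x axis), with points numbered by replicate and bars for the mean ± SD of 3 livers. Abcc2, Abcb11, Abcc3 and Slco1b2 were lower in all 3 ethanol-fed control livers than in any pair-fed liver, whereas Slc10a1 and Slco2b1 overlapped.

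The first comparison, ethanol-fed against pair-fed livers with the control virus, asks how transporter transcripts differed after ethanol feeding. Of the 10 transporters 9 were tested, and 1 of these, Slco1a1, reached the filter on low values (1 FPKM in 3 libraries) through the pair-fed livers alone and so is kept apart from the counts given here. Transcripts of 5 of the other 8 fell and none rose. These were Slco1b2, Abcb11, Abcb4, Abcc2 and Abcc3, which include all 3 canalicular exporters and the tested basolateral exporter. The main bile acid uptake carrier Slc10a1 and the broader carriers Slco1a4 and Slco2b1 did not pass the test. Over all 10064 genes tested by limma on log2(FPKM + 1), 26.0% were called lower, 10.0% higher and 36.0% in either direction at an adjusted p under 0.05. The median log2 fold change was -0.83 over the 8 transporters and -0.14 over all genes tested.

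Abcb11 encodes the bile salt export pump, which secretes bile acids into the canaliculus. In livers 1 to 3 of each group its level was 111, 103 and 143 FPKM after pair feeding and 82.9, 60.1 and 62.9 FPKM after ethanol feeding. Every ethanol-fed liver was below every pair-fed liver. The log2 fold change was -0.79 (SE 0.17, limma adjusted p = 0.0118), a 1.73-fold lower level.

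Abcc2 encodes the canalicular exporter of bilirubin glucuronide and other conjugates. It was at 96.3, 135 and 140.0 FPKM in the pair-fed livers and 58.9, 39.2 and 43.9 FPKM in ethanol-fed livers, with no overlap. The difference was -1.37 on the log2 scale (SE 0.19, limma adjusted p = 0.00308), which is 2.59-fold lower.

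Abcb4 encodes the canalicular floppase that delivers phosphatidylcholine to bile. It was at 78.6, 89.5 and 104.9 FPKM in the pair-fed livers and 78.55, 42.3 and 35.3 FPKM in ethanol-fed livers. Ethanol-fed liver 1 lay at the level of the lowest pair-fed liver and the other 2 lay well below it. The log2 fold change was -0.87 (SE 0.28, limma adjusted p = 0.0448), and the call was lost with median-ratio scaling (adjusted p = 0.0631), in the fit of all 9 libraries (0.0622) and without the filter on low values (0.0754). It was also lost without pair-fed liver 1 (adjusted p = 0.0741), 2 (0.124) or 3 (0.143) and without ethanol-fed liver 2 (0.122) or 3 (0.125).

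Slco1b2 encodes the hepatocyte uptake carrier for unconjugated bile acids, bilirubin conjugates and many drugs. It was at 446, 512 and 631 FPKM in the pair-fed livers and 293, 244 and 247 FPKM in ethanol-fed livers. The groups were well apart, and the 3 ethanol-fed livers lay close together. On the log2 scale the difference was -1.01 (SE 0.15, limma adjusted p = 0.0036), a 2.01-fold lower level.

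Slco1a1 encodes another anion uptake carrier, known in mice for higher expression in males. It was at 2.53, 9.53 and 17.8 FPKM in pair-fed livers, from 377, 1398 and 2632 recovered reads, and at 0.611, 0.0676 and 0.528 FPKM in ethanol-fed livers, from 84, 10 and 78 reads. All ethanol-fed livers were below all pair-fed livers, which themselves differed widely. The percent change of the mean was -96.0. The log2 fold change, which the pseudocount of 1 shrinks at these levels, was -2.69 (SE 0.55, limma adjusted p = 0.0103) and with a pseudocount of 0.1 it was -4.19. Its place among the tested genes rested on the group where it was high, so the call is a description. Leaving out any pair-fed liver took it below the filter. Xist was at 41.9 to 69.1 FPKM and the Y-linked Ddx3y at 0 to 0.0223 FPKM in all 9 livers, both genes being chosen after their values were seen.

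Slco1a4 encodes a related carrier of bile acids, cardiac glycosides and steroid conjugates. It was at 39.0, 42.7 and 47.2 FPKM in the pair-fed livers and at 38.9, 16.0 and 24.6 FPKM in ethanol-fed livers. Ethanol-fed liver 1 lay just under the lowest pair-fed liver. The log2 fold change of -0.76 (SE 0.28, limma adjusted p = 0.0688) missed the threshold. Without ethanol-fed liver 1, which these transporters picked out, it was -1.07 (limma adjusted p = 0.00358), a description only. Slco1a1, Slco1a4 and Slco1b2 lie together on chromosome 6 between 141629452 and 141946962 (GRCm38), and Slco1a1 and Slco1a4 are similar in sequence. How the authors' counting assigned reads that fit several copies is not given in the sources used here, so the split between these genes is uncertain.

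Slc10a1 encodes NTCP, the sodium-dependent carrier that takes up most conjugated bile acids. It was at 375, 359 and 391 FPKM in the pair-fed livers and at 428, 276 and 312 FPKM in ethanol-fed livers. Ethanol-fed liver 1 was above every pair-fed liver and the other 2 were below them all. Over the group its log2 fold change was -0.17 (95% interval -0.55 to 0.21, limma adjusted p = 0.440). Without ethanol-fed liver 1, which these transporters picked out, it was -0.35 (limma adjusted p = 0.0247), a description only. Median-ratio scaling turned the log2 fold change to 0.017.

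Slco2b1 encodes an uptake carrier of steroid sulfates and many drugs, found in several tissues. It was at 29.1, 31.3 and 26.8 FPKM in the pair-fed livers and 33.8, 26.1 and 21.3 FPKM in ethanol-fed livers, and the groups overlapped. Its log2 fold change was -0.12 (95% interval -0.50 to 0.26, limma adjusted p = 0.587), with a positive value of 0.059 after median-ratio scaling.

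Abcc3 encodes a basolateral exporter of glucuronides and bile acids. It was at 39.1, 52.3 and 40.9 FPKM in the pair-fed livers and 24.3, 22.9 and 20.6 FPKM in ethanol-fed livers, with no overlap and the least spread among ethanol-fed livers of any of the 10 genes (coefficient of variation 8.44%). Its log2 fold change was -0.93 (SE 0.13, limma adjusted p = 0.00321), a 1.90-fold lower level. Abcc4 encodes the other basolateral exporter, which moves bile acids together with glutathione. It was at 0.445, 0.616 and 0.425 FPKM in the pair-fed livers and 0.720, 0.587 and 0.502 FPKM in ethanol-fed livers, below the filter in every library. Fitted without the filter, its log2 fold change was 0.10 (SE 0.086, limma adjusted p = 0.435).

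In 6 of the 8 genes every ethanol-fed liver was below every pair-fed liver in FPKM as deposited, against 37.2% of all genes tested. For Abcb4 and Slco1a4 the margin was very small, with ethanol-fed liver 1 at 78.55 and 38.92 FPKM. Pair-fed liver 1 was at 78.60 and 39.05 FPKM. Median-ratio scaling, which sets the median library ratio to 1, moved the median over all genes from -0.14 to 0.011 and the calls over all genes from 1009 higher and 2616 lower to 1773 higher and 1680 lower. Under it 4 of the 8 were lower (16.7% of genes called lower, 17.6% higher) and the median of the 8 was -0.65. It divides ethanol-fed liver 1 by 1.03 and pair-fed liver 1 by 1.09, and the groups then overlap for Abcb4 and Slco1a4. Without ethanol-fed liver 1, Slc10a1 and Slco1a4 were called lower as well. The transporters themselves picked this liver out, so both added calls are descriptions only. More genes were called lower throughout in that fit, 3645 of 9879 against 2616 of 10064 with this liver. Without any single pair-fed liver 4 of 8 tested were lower, Abcb4 being lost. Fewer genes were called throughout in these fits, with 1509 of 9795, 1130 of 9823 and 1133 of 9830 genes lower without pair-fed livers 1 to 3.

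**Figure D2:**
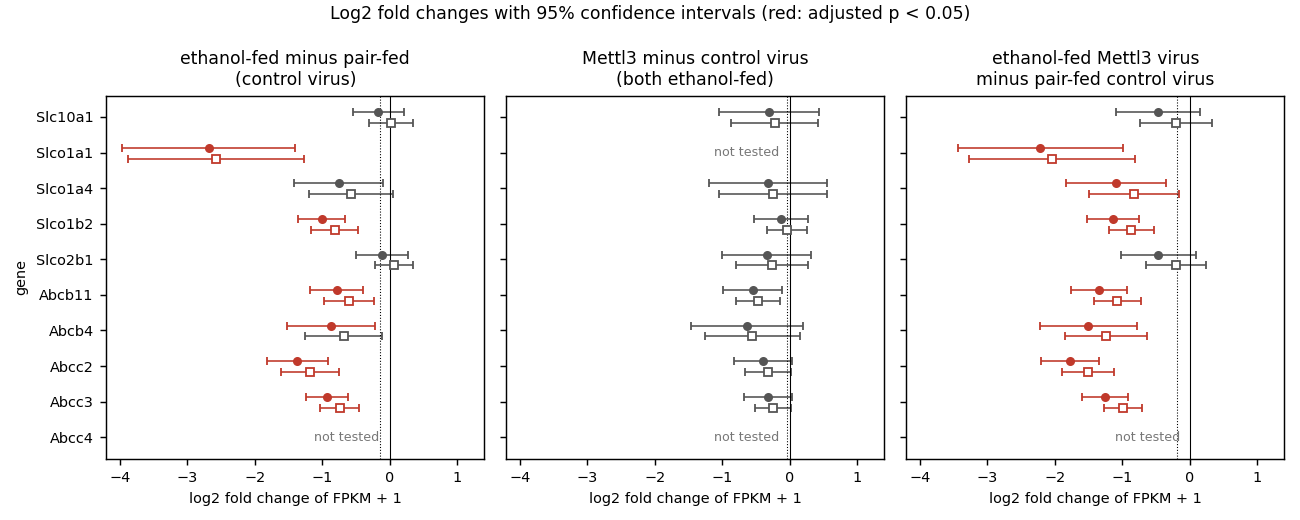
Log2 fold changes of FPKM + 1 (x axis) for each transporter (y axis) in the 3 comparisons, with 95% intervals, filled circles for FPKM as deposited and open squares for median-ratio scaling, red where the adjusted p was under 0.05 and a dotted line at the median of all genes. In the first panel 6 circles are red, Slco1a1 included, and the intervals of Slc10a1 and Slco2b1 cross 0, in the second panel none is red, and in the third 7 are red, again with Slco1a1.

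In the authors' deposited table for this comparison the log2 fold changes of these 5 genes and of Slco1a1 were also negative with q-values under 0.05. In that table Abcc2 was at -1.21 (q = 2.9e-08), Abcc3 at -0.78 (q = 5.65e-06), Slco1b2 at -0.84 (q = 9.96e-06), Abcb11 at -0.62 (q = 0.00309) and Abcb4 at -0.65 (q = 0.0328). The authors' deposited table put Slco1a1 at -4.46 (q = 0.000271), and Slc10a1 at 0.03 (q = 0.921).

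Ratios of FPKM within a liver show where transporters changed by unequal amounts, and they do not depend on the scaling of the library. They were chosen with the levels known and are given without a test. How often pairs of genes separate these groups was not counted. Of further ratios computed, Abcb4 to Abcb11 overlapped, at 0.705 to 0.866 in pair-fed and 0.561 to 0.947 in ethanol-fed control livers. Abcc2 to Abcc3, Slco1a4 to Slco1a1 and Slco1a4 to Slco2b1 did not overlap between these groups. The ratio of Slco1b2 to Slc10a1, the 2 most abundant uptake carriers, was 1.19, 1.43 and 1.62 in the pair-fed livers and 0.685, 0.884 and 0.793 in ethanol-fed control livers. It was thus above 1 in each pair-fed liver and below 1 in each ethanol-fed control liver. In Mettl3 livers it was 1.10, 0.945 and 0.668, between and below those values.

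The ratio of Abcb11 to Slc10a1 sets canalicular export beside sinusoidal uptake of bile acids. It was 0.297, 0.288 and 0.367 after pair feeding, 0.194, 0.218 and 0.202 in ethanol-fed control livers and 0.211, 0.184 and 0.130 in Mettl3 livers. No ethanol-fed liver reached the pair-fed range. Abcc2 to Abcb11 was 0.865 to 1.31 in pair-fed livers, 0.652 to 0.710 in ethanol-fed control livers and 0.725 to 0.839 in Mettl3 livers. Slco2b1 to Slc10a1 was 0.0685 to 0.0945 over all 9 livers, and the 3 groups overlapped in it even though each gene varied between livers.

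**Figure D3:**
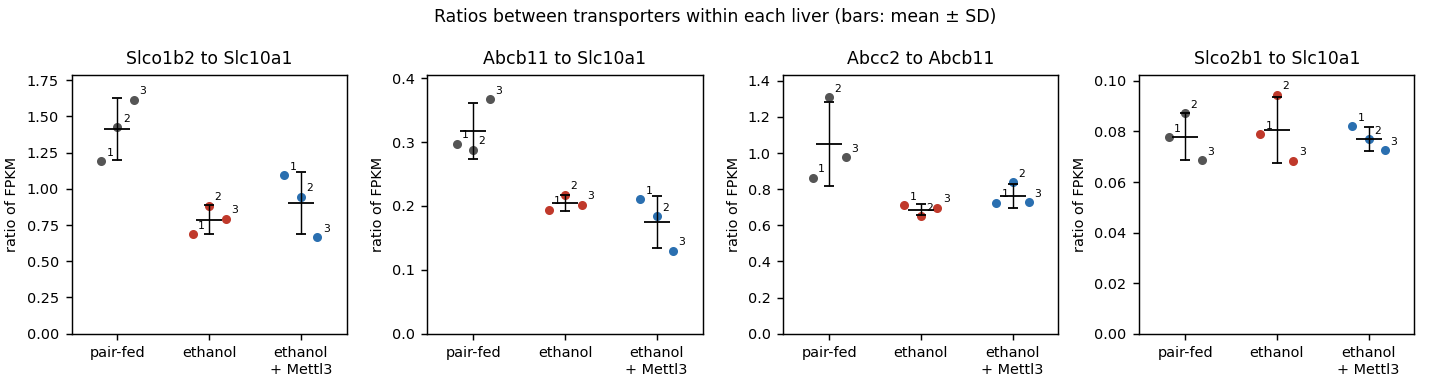
Ratio of the FPKM of one transporter to another (y axis, from 0) within each liver by group (x axis), with points numbered by replicate and bars for the mean ± SD of 3 livers. Slco1b2 to Slc10a1 and Abcb11 to Slc10a1 were lower in all 3 ethanol-fed control livers than in any pair-fed liver, and Slco2b1 to Slc10a1 overlapped in all groups.

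Summed by role, uptake carriers came to 891, 954 and 1114 FPKM after pair feeding, 794, 562 and 605 in ethanol-fed control livers and 469.5, 447 and 794 in Mettl3 livers. Canalicular exporters came to 286, 328 and 388 FPKM after pair feeding, 220.4, 142 and 142 in ethanol-fed control livers and 102, 96.4 and 145 in Mettl3 livers. In FPKM as deposited, both sums were lower in every ethanol-fed liver than in any pair-fed liver. Of single genes, 37.2% lay this way for ethanol-fed control livers and 44.2% for Mettl3 livers. With median-ratio scaling, which divides Mettl3 liver 3 by 1.00 and pair-fed liver 1 by 1.13, the uptake sums overlap. The share of Slc10a1 in the summed uptake level was 35.1% to 42.0% in the pair-fed livers and 49.1% to 53.9% in ethanol-fed control livers, and that of Slco1b2 was 50.02% to 56.7% and 36.9% to 43.4%.

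The second comparison, Mettl3 against control virus in ethanol-fed livers, asks whether overexpression of the m6A methyltransferase subunit changed these transcripts under ethanol. None of the 8 tested transporters passed the test in either direction, and 1 of them had an unadjusted p under 0.05. Over all 9706 genes 1 was called by limma, Mettl3 itself, which is 0.0103%, and 723 had an unadjusted p under 0.05. limma-voom on recovered reads also called none of the 8. The median log2 fold change was -0.34 over the 8 transporters and -0.045 over all genes. This comparison shares its control livers with the first, so ethanol-fed liver 1 enters both with opposite sign. Without ethanol-fed liver 1 the median over the 8 transporters was -0.21, and 0.0067 over all genes. Without Mettl3 liver 3 these medians were -0.64 and -0.079. No transporter was called in either fit.

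The 3 canalicular exporters had the most negative values. Abcb11 was at 43.9, 39.1 and 56.8 FPKM in Mettl3 livers, all below the 60.1 to 82.9 FPKM of ethanol-fed control livers. It was the only transporter without overlap between these groups, and 6.62% of all genes had every Mettl3 liver below every control liver. Its log2 fold change was -0.55 (95% interval -0.99 to -0.11, limma adjusted p = 0.641). In the authors' deposited table it was -0.48 with q = 0.287.

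Abcb4 was at 25.9, 24.6 and 47.3 FPKM and Abcc2 at 31.8, 32.8 and 41.3 FPKM in Mettl3 livers. In both genes Mettl3 livers 1 and 2 lay below all control livers and Mettl3 liver 3 lay among them. The log2 fold change was -0.64 for Abcb4 (95% interval -1.47 to 0.20, limma adjusted p = 0.645). For Abcc2 it was -0.40 (95% interval -0.83 to 0.028, limma adjusted p = 0.641).

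Among uptake carriers, Slco1b2 was at 228, 201 and 292 FPKM in Mettl3 livers and differed from the control livers by -0.13 (95% interval -0.53 to 0.26, limma adjusted p = 0.804). Slc10a1 was at 208, 213 and 437 FPKM, Slco1a4 at 15.1, 16.1 and 30.8 FPKM and Slco2b1 at 17.1, 16.4 and 31.7 FPKM. In each of these, Mettl3 liver 3 was above the mean of the ethanol-fed control livers, and Mettl3 livers 1 and 2 lay close together below it. Their log2 fold changes were -0.31, -0.33 and -0.35 with limma adjusted p between 0.710 and 0.783, and the intervals reached from -1.20 to 0.54.

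Slco1a1 was at 0.700, 0.346 and 2.05 FPKM in Mettl3 livers and was not tested, since too few libraries reached 1 FPKM. Its groups overlapped. Abcc3 was at 16.0, 16.2 and 21.7 FPKM, with a log2 fold change of -0.33 (95% interval -0.68 to 0.027, limma adjusted p = 0.641). Abcc4, also untested, was at 0.490, 0.388 and 0.516 FPKM. The intervals of Abcb11, Abcb4, Abcc2 and Abcc3, which are not adjusted for the number of genes, reached -0.68 or lower, so missing the threshold does not show that the groups are alike.

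The third comparison set ethanol-fed Mettl3 livers against pair-fed control livers in the fit of all 9 libraries, and virus and diet cannot be told apart in it. It shares the pair-fed livers with the first comparison. Slco1a1 again reached the filter through the pair-fed livers, with Mettl3 liver 3 the only other library above 1 FPKM, and is kept apart. Transcripts of 6 of the other 8 tested transporters were lower and none was higher, while over 10229 genes 34.9% were called lower, 13.9% higher and 48.8% in either direction. The median log2 fold change was -1.20 over the 8 transporters and -0.18 over all genes. In 6 of the 8 every Mettl3 liver was below every pair-fed liver, against 44.2% of all genes.

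Abcc2 had a log2 fold change of -1.77 (SE 0.19, limma adjusted p = 0.000495), Abcc3 of -1.25 (SE 0.15, adjusted p = 0.000724) and Abcb11 of -1.34 (SE 0.18, adjusted p = 0.0011). Abcb4 was at -1.51 (adjusted p = 0.00516), Slco1b2 at -1.14 (0.00149) and Slco1a4 at -1.09 (0.0224). The value of Slco1a1, a description only, was -2.22. Slco1a4 lost its call without pair-fed liver 2 (adjusted p = 0.0608) or 3 (0.0718) and without Mettl3 liver 1 (0.0827) or 2 (0.0789). Slc10a1, at -0.48 (95% interval -1.10 to 0.14), and Slco2b1, at -0.47 (95% interval -1.02 to 0.088), did not pass. Without Mettl3 liver 3 these 2 were called lower as well, with Slc10a1 at -0.83 (adjusted p = 0.00374) and Slco2b1 at -0.76 (adjusted p = 0.00587). The transporters themselves picked that liver out, so both added calls are descriptions only. In that fit 4080 of 10194 genes were lower, against 3572 of 10229 with this liver. Median-ratio scaling gave 6 of 8 lower, with 21.6% of all genes lower and 25.3% higher.

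**Figure D4:**
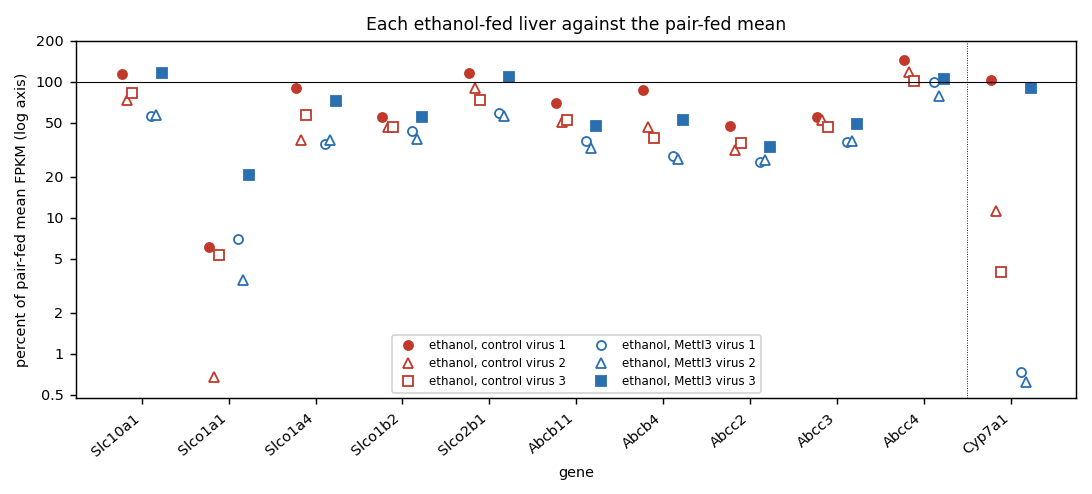
Level of each transporter, and of Cyp7a1, in every ethanol-fed liver as a percent of the pair-fed mean FPKM (y axis, log axis), with filled symbols for ethanol-fed control liver 1 and Mettl3 liver 3. The filled symbols lie highest within their group for each of the 10 transporters, and in Cyp7a1 they lie at 103% and 89.4% while the other 4 livers are between 0.616% and 11.2%.

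Liver by liver, the median of the 10 transporters was 77.9%, 48.4% and 49.7% of the pair-fed mean in ethanol-fed control livers 1 to 3. In Mettl3 livers 1 to 3 it was 36.5%, 37.1% and 53.6%. Ethanol-fed control liver 1 and Mettl3 liver 3 were picked out by these same transporters, so their place as the least lowered of their groups is no separate result. Abcc2 was low in them as well, at 47.6% of the pair-fed mean in the first and 33.3% in the second. Slc10a1 in the same livers was at 114% and 117% of the pair-fed mean.

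Other genes around the transporters were counted from lists chosen with earlier results of these data known. The counts stand beside 26.0% of all genes lower and 10.0% higher (16.7% and 17.6% with median-ratio scaling). Of 25 other tested hepatic transporters, 3 rose and 11 fell with ethanol feeding (8 and 10 with median-ratio scaling), with a median log2 fold change of -0.39. Abcg5 and Abcg8, the partners of the canalicular sterol exporter, fell, with log2 fold changes of -1.78 (limma adjusted p = 0.00125) and -2.18 (0.00357). Slc10a2, the sodium-dependent bile acid carrier best known from ileum and bile duct, rose by 1.72 (adjusted p = 0.00313), from 2.58 to 4.79 FPKM in pair-fed livers to 10.1 to 18.4 FPKM. Slc10a2 is also 1 of 10 cholangiocyte markers, of which 6 were tested, 2 were higher (Slc10a2 and Sox9) and none was lower. The summed level of the 9 listed markers includes Slc10a2 itself. It was 35.3 to 50.9 FPKM in the pair-fed livers and 39.0 to 60.5 FPKM in the ethanol-fed control livers. Among the other markers, Sox9 went from 0.246 to 0.398 FPKM to 1.03 to 1.41 FPKM. Krt19 went from 2.37 to 3.69 FPKM to 1.69 to 2.20 FPKM, and Spp1 from 24.2 to 34.4 FPKM to 18.9 to 33.8 FPKM. The part of cholangiocytes in the rise of Slc10a2 was not tested. The basolateral efflux subunit Slc51b rose by 0.90 (adjusted p = 0.0115), from 0.832 to 1.91 FPKM to 2.70 to 3.96 FPKM, while its partner Slc51a was at or under 0.104 FPKM in all 9 livers.

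Of the 17 genes of bile acid synthesis and conjugation, 11 fell and 2 rose (10 and 4 with median-ratio scaling), with a median log2 fold change of -0.56. Among those lower, Akr1c6 was at -1.41 (limma adjusted p = 0.00103), the very-long-chain acyl-CoA synthetase Slc27a2 at -1.27 (0.00125), the sterol nucleus enzyme Hsd3b7 at -1.05 (0.00236) and the peroxisomal side-chain enzyme Hsd17b4 at -0.67 (0.00259). Cyp7a1, at -2.23, did not pass (adjusted p = 0.0984), and ethanol-fed liver 1 lay in the pair-fed range with the other 2 far below it.

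Among 22 tested transcription factors and signals known to act on these transporters, 11 fell and 1 rose (7 and 2 with median-ratio scaling), with a median of -0.43. The FXR target and repressor Nr0b2 was at -2.08 (limma adjusted p = 0.00129), CAR (Nr1i3) at -1.84 (0.00158), the fatty acid receptor Ppara at -1.78 (0.00177) and the growth hormone receptor Ghr at -1.05 (0.00304), all called lower. PXR (Nr1i2) was at -0.82 (adjusted p = 0.0489), and its call was lost with median-ratio scaling (0.0684). FXR (Nr1h4) was at -0.19 (adjusted p = 0.460), NRF2 (Nfe2l2) at -0.17 (0.547) and Hnf4a at -0.0052 (0.983), and none of these passed.

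Of 14 CAR and PXR targets 3 rose and 4 fell (3 and 3 with median-ratio scaling), the share lower being near that of all genes. Cyp2b10, the best known CAR target, rose by 3.48 (limma adjusted p = 0.000841), from 0.355 to 0.401 FPKM in pair-fed livers to 8.29 to 23.2 FPKM, while Cyp3a11 was at -0.28 (0.113). Of 15 tested NRF2 targets 2 rose and 5 fell (2 and 3 with median-ratio scaling), with Hmox1 at 1.34 (adjusted p = 0.0022) and the glutathione synthesis subunit Gclm at -1.15 (0.00157). Of 25 genes of membrane anchoring and canalicular trafficking 7 fell and none rose (5 and 3 with median-ratio scaling), again a share near the 26.0% of all genes. Among those lower was radixin (Rdx), which anchors Abcc2 at the canaliculus, at -0.87 (adjusted p = 0.00962). In the Mettl3 comparison none of these lists held a called gene. In the third comparison the counts lower and higher were 13 and 3 of 25 other transporters (12 and 7 with median-ratio scaling). They were 10 and 1 of 17 synthesis genes (8 and 1) and 11 and 1 of 22 factors (9 and 3).

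**Figure D5:**
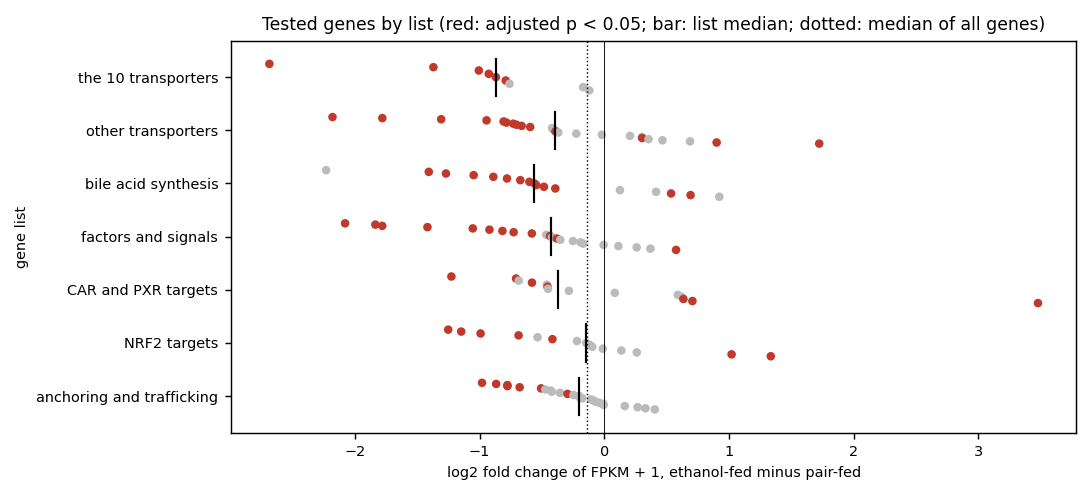
Log2 fold change of FPKM + 1, ethanol-fed minus pair-fed (x axis), for each tested gene of 7 lists (y axis), red where the adjusted p was under 0.05, with a bar at the list median and a dotted line at the median of all genes. The transporters, Slco1a1 included, have a median of -0.87 and no red point above 0, and the NRF2 targets have a median of -0.14, at that of all genes.

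Markers of other liver cells moved with the same comparison. Of 8 Kupffer cell markers 6 were lower and 1, Cd163, was higher, with summed levels of 184 to 216 FPKM in the pair-fed livers and 100.1 to 149.9 FPKM in ethanol-fed control livers. Of 8 sinusoidal endothelial markers 7 were lower (4 with median-ratio scaling) and 1, Lyve1, was higher, with sums of 135 to 151 and 94.0 to 107 FPKM. Of 8 stellate cell markers 4 were lower and 1 was higher (1 and 1 with median-ratio scaling). Of 3 tested neutrophil markers 1 was higher, as was 1 of 5 tested erythroid markers, and none of either was lower. Of 9 hepatocyte markers 1 was lower and 2 were higher. The part of these shifts in the transporter results was not tested.

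Genes with the pattern closest to a transporter over the 9 libraries were sought for the most variable gene of each role, by the root-mean-square difference of centred log2(FPKM + 1) among 10228 genes. For Abcc2 they were Rab43 (0.124), Slc8b1 (0.125), Abcd3 (0.138) and Sult2a8 (0.144), where the median over all genes was 0.723. For Abcc3 they were Phka2 (0.0917), Tmtc2 (0.0976), Afmid (0.0981) and Vwa8 (0.102), with a median of 0.4997. For Slco1a1 the closest genes, Gm3734 (0.477), Agfg2 (0.482), Fbxo21 (0.507) and Hsd3b2 (0.527), were much less close, with a median of 1.29.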

How the data were processed

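RNA sequencing libraries of 9 mouse livers were grouped by their sample titles. The submitters' processing notes name fastp, HISAT2, HTSeq and the build mm10, with versions and strand setting not given in the sources used here. The authors deposited 2 tables of 6 libraries each, holding FPKM per library. Other deposited columns are a signal (mean of size-factor-scaled counts, labelled DESeq2 per the file headers), a linear fold (ratio), its log2, a p-value and a q-value, whose tool the headers do not name. Deposited values of the ethanol-fed control livers, present in each table, matched to a relative difference of 1.08e-06.

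Differences were tested with limma 3.58.1 in R 4.3.3 (lmFit, then eBayes with its trend and robust options). The values were log2(FPKM + 1) of all genes that reached an FPKM of 1 in 3 or more of the fitted libraries. P-values were adjusted by Benjamini-Hochberg over every gene tested, and the threshold was 0.05. The first 2 comparisons were fitted on their own 6 libraries and the third on all 9. The design foresaw a test for FPKM and another for counts, and the one for FPKM was used. Whole reads came back from FPKM and the deposited means for 100% of values within a tolerance of 0.05. That tolerance was widened in proportion to the count for high counts, so the check says little about the most abundant genes. These reads entered limma-voom, an alternative added after seeing the data. Other alternatives were a pseudocount of 0.1, no filter, a filter of 5 FPKM, median-ratio scaling, the replicate number as a block, eBayes without those options, another set of libraries and leaving out each library.

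The transporters, lists, named genes and tests were chosen with earlier results of these data known. The text names every transporter, up to 4 genes per list with the smallest p, genes with a set role for a transporter, and the 4 closest patterns per role. Some genes that this rule names, and 1 motif searched, are not reported here. Fits were run on simulated counts with a single setting of spread for all genes and no outlying library. That run therefore says little about these livers. Tables and figures were made with Python 3.11.15, numpy 2.4.6, pandas 2.3.3 and matplotlib 3.10.9. Promoter windows and coordinates are from RefSeq on GRCm38.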

Additional observations from a re-analysis of the deposited data

How the results depend on the processing

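The number of livers, 3 a group with 1 that lay highest for these transporters in each ethanol-fed group, limits precision. Depth was lowest for Abcc4 and Slco1a1, with as few as 131 and 10 reads. With a filter of 5 FPKM, the genes called went from 3625 to 2414 in the first comparison and from 4996 to 3176 in the third, where fewer genes were tested. Without each library in turn the first comparison gave 1538 to 4743 genes, the second 0 to 2 and the third 3342 to 5678. In the second comparison 1 gene became 0 without the filter and 3 in the fit of all 9 libraries, and the cause was not tested. The log2 fold change of Slc10a1 in the first comparison turned to 0.017 and that of Slco2b1 to 0.059 with median-ratio scaling. Without each library in turn that of Slco2b1 ran from -0.29 to 0.032. Slco1a1 included where tested, the number of transporters called lower ran from 4 to 8 in the first comparison over all alternatives, was 0 in the second and ran from 6 to 9 in the third. The counts of 8 and 9 came from leaving out ethanol-fed control liver 1 and Mettl3 liver 3, which these transporters picked out.

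The livers were not treated as paired by replicate number, since same-numbered livers did not deviate together throughout (r of -0.19, -0.11 and 0.11 between ethanol-fed and pair-fed livers, -0.35, 0.39 and -0.41 between Mettl3 and ethanol-fed control livers, and 0.048, -0.050 and 0.094 between Mettl3 and pair-fed livers). Between livers of different number r ran from -0.51 to 0.58. With 3 livers a group these values cannot exclude pairing. With the replicate block, 2778, 0 and 4472 genes were called in the 3 comparisons, with 5, 0 and 7 transporters among them (Slco1a1 included), and Abcb4 was the call lost (adjusted p = 0.0750).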
